A study of Mus musculus with 6 samples.

Results

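The 10 genes described here encode the TGF-beta ligands (*Tgfb1*, *Tgfb2* and *Tgfb3*), their receptors (*Tgfbr1*, *Tgfbr2* and *Tgfbr3*) and the latent TGF-beta binding proteins (*Ltbp1*, *Ltbp2*, *Ltbp3* and *Ltbp4*). They were taken by symbol from the 23159 genes of the count table, and all 10 were found. Bulk RNA-seq compared slow-cycling label-retaining chondrocytes (LRCs, high H2B-GFP) with non-LRCs (mid to low H2B-GFP) of the mouse growth plate at P49, in 3 independent experiments that each gave 1 library of either group. Both groups came from the same Col2-Q mice, homozygous for Col2a1-tTA (inserted downstream of *Peli2*), TRE-H2B-GFP in *Col1a1*, Col2a1-creER and R26R-tdTomato. Doxycycline from P21 to P49 shut off H2B-GFP, so that each division diluted the label, and tamoxifen at P46 and P47 switched on tdTomato. The *Col2a1* promoter drives both tTA and creER, although the TRE-H2B-GFP allele is described as giving low GFP in osteoblasts and osteocytes without tTA. The cells were CD45-negative and tdTomato+, came from distal femur and proximal tibia, and were pooled from several littermates in each experiment, about 10000 LRCs and 50000 non-LRCs per library. The p-values therefore measure the spread between 3 experiments, not between single mice.

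TGF-beta is secreted as a latent complex in which the cleaved propeptide still wraps the ligand, and a latent binding protein tethers this complex to fibrillin and fibronectin in the matrix. Integrins, proteases or thrombospondin free the ligand, which is captured by the type II receptor (*Tgfbr2*), often with the help of the co-receptor betaglycan (*Tgfbr3*), and signals through the type I receptor kinase (*Tgfbr1*) to Smad2 and Smad3. In cartilage the pathway is known for holding back chondrocyte hypertrophy and for regulating matrix production.

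The libraries held between 18943789 and 129559872 counts. The LRC library of experiment 2 stood apart as the smallest, with 1731 of the 13728 genes tested at 0, against 4 to 365 in the other 5. Markers of growth plate chondrocytes were high in every library, and the 10 of them in the table (*Col2a1*, *Acan*, *Sox9*, collagen IX and XI chains, *Hapln1*, *Matn1* and *Matn3*) summed to 82212 to 229971 CPM among LRC libraries and 134679 to 242171 CPM among non-LRC libraries. Of these 10, 9 had a log2 fold change below 0 and 8 were lower in LRCs in all 3 experiments, against 26.1% of all genes, with 0 called lower by edgeR, 4 at an unadjusted p under 0.05, 3 by DESeq2 and 4 by limma-voom. Markers of superficial articular, synovial and fibroblast cells summed to 983 to 3796 CPM among LRC libraries and 428 to 764 CPM among non-LRC libraries. Of the 10 tested markers of that list, 3 were called higher in LRCs (*Prg4*, *Cilp* and *Cilp2*, at edgeR log2 fold changes of 5.75, 3.61 and 2.05), against 0.903% of all genes. All 10 had a log2 fold change above 0, where 6038 of the 13728 genes tested did, although that of *Vit* was only 0.11. In all 3 experiments 7 of the 10 were higher in LRCs, against 20.4% of all genes. *Htra4* and *Col14a1* were lower in LRCs in experiment 2, with log2 changes of -4.71 and -5.23. The 6 hypertrophic chondrocyte markers summed to 607 to 1840 CPM among LRC libraries and 705 to 2457 CPM among non-LRC libraries. All 6 had a log2 fold change below 0, where 7690 of the 13728 genes tested did, but that of *Spp1* was only -0.0035. *Spp1* measured 398, 1728 and 1111 CPM in LRCs against 416, 1683 and 1100 CPM in non-LRCs of experiments 1, 2 and 3. In all 3 experiments 3 of the 6 were lower in LRCs, against 26.1% of all genes. *Ibsp* and *Mmp13* were higher in LRCs in experiment 1, with log2 changes of 0.67 and 1.08. Of the 6, 1, *Panx3*, was called lower (-4.01), against 0.379% of all genes. The 8 osteoblast markers summed to 1629 to 3464 CPM among LRC libraries and 1515 to 2576 CPM among non-LRC libraries. Most of this was *Col1a2*, at 2950, 1273 and 1487 CPM in LRCs and 2055, 1398 and 868 CPM in non-LRCs of experiments 1, 2 and 3. Of these 8, 3 were higher in LRCs in every experiment, against 20.4% of all genes: *Col1a1* (log2 fold change 2.38), *Dmp1* (2.94, interval -1.44 to 7.31) and *Runx2* (0.496). Only *Col1a1* was called higher by edgeR, against 0.903% of all genes. Another 4 (*Bglap*, *Bglap2*, *Sp7* and *Alpl*, at -1.14, -1.48, -1.25 and -0.93) were lower in every experiment, against 26.1% of all genes, and edgeR called 0 of them lower. The list had 4 lower and 1 higher by DESeq2, 3 lower and 1 higher by limma-voom, and 4 lower and 2 higher at an unadjusted p under 0.05. Of all genes, DESeq2 called 6.15% lower and 6.16% higher, and limma-voom 4.69% and 5.22%. At an unadjusted p under 0.05, 9.53% of all genes were lower and 8.89% higher. Skeletal muscle markers summed to 6.705 to 10.4 CPM among LRC libraries and 13.9 to 16.2 CPM among non-LRC libraries. The 8 endothelial and mural markers summed to 11.8 to 64.5 CPM among LRC libraries and 12.3 to 30.3 CPM among non-LRC libraries, almost all of it *Pdgfrb*, with *Cdh5*, *Kdr* and *Emcn* at 0 counts in every library and *Pecam1* at no more than 0.681 CPM. *Pdgfrb*, a receptor of mural and other mesenchymal cells, measured 64.1, 11.2 and 33.8 CPM in LRCs against 28.2, 20.4 and 11.2 CPM in non-LRCs. Of the 3 tested genes of that list, edgeR called 0, and 1 higher without experiment 2 (3.27% of all genes), while DESeq2 called 1 lower and limma-voom 0. *Acta2* of that list, at no more than 1.92 CPM, had a log2 fold change of -4.76 (interval -10.1 to 0.62). Leukocyte and erythroid markers summed to 8.24 to 23.8 CPM among LRC libraries and 7.08 to 14.01 CPM among non-LRC libraries, mostly *Cd68*, a lysosomal gene of macrophages, at 4.71 to 22.99 CPM. The pan-leukocyte marker *Ptprc* was at 0 in 5 libraries and at 0.233 CPM in the other. The part of these marker lists in the results was not tested.

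Of the 10 genes, 3 were higher in LRCs: *Ltbp3*, *Tgfbr3* and *Tgfb3*, one from each family. Counts were compared with the quasi-likelihood test of edgeR with the experiment as a block, a gene was called at an adjusted p under 0.05 over all 13728 genes tested, and it was a DEG if its log2 fold change was also at least 1 in size. All 10 had counts high enough to be tested, and the 3 called genes were all DEGs. Across all genes tested, 0.903% were called higher in LRCs and 0.379% lower, and 0.874% were DEGs higher in LRCs. None of the 10 genes was lower by edgeR, with 0 at an unadjusted p under 0.05 in that direction and 0 by either DESeq2 or limma-voom. The median log2 fold change of the 10 was 0.92, against -0.097 for all genes tested, and 6 of 10 (*Tgfb1*, *Tgfb3*, *Tgfbr2*, *Tgfbr3*, *Ltbp1* and *Ltbp3*) were higher in LRCs in each of the 3 experiments, against 20.4% of all genes. Only for *Tgfb3*, *Tgfbr3* and *Ltbp3* did all 3 LRC libraries lie above all 3 non-LRC libraries, which held for 8.41% of all genes. In bulk samples, a larger number of expressing cells and more RNA per cell cannot be told apart, and this applies to each difference given here.

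The count of called genes moved with the model. Without the block 0 of the 10 were called (0.00728% of all genes), while DESeq2 with the block, limma-voom with the block and edgeR on genes with 10 or more counts in each library all called 6 (*Tgfb1*, *Tgfb3*, *Tgfbr2*, *Tgfbr3*, *Ltbp1* and *Ltbp3*), where 6.16%, 5.22% and 3.78% of all genes were called higher. DESeq2 size factors in edgeR left the count at 3 (1.04% of all genes). Leaving out experiment 1 left 0 called (0.196% of all genes), leaving out experiment 3 left 2 (0.99%), and leaving out experiment 2, which held the library that stood apart, gave 6 (3.27%), with *Tgfbr1* in place of *Tgfb1*.

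The ligands are secreted growth factors of closely related sequence. *Tgfb3* (chr12:86056745-86079041 on GRCm38) measured 117, 73.3 and 85.9 CPM in LRCs against 52.8, 36.5 and 47.3 CPM in non-LRCs. Values of libraries are given in the order of experiments 1, 2 and 3, and CPM are counts scaled by library total and TMM factor. The lowest LRC library lay above the highest non-LRC library. The means were 91.99 ± 22.4 CPM for LRCs against 45.5 ± 8.26 CPM for non-LRCs (SD, n = 3), a 2.01-fold difference with a 95% interval of 1.55 to 2.599 (log2 fold change 1.004 ± 0.15, SE, n = 3 pairs, edgeR adjusted p = 0.0489). The call was close to the threshold. Without experiment 1 the log2 fold change was 0.93 (adjusted p = 0.231), without experiment 2 it was 1.01 (adjusted p = 0.0257) and without experiment 3 it was 1.096 (adjusted p = 0.0638), all by edgeR.

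*Tgfb1* (chr7:25687002-25705077), the ligand stored in large amounts in bone and cartilage matrix, measured 47.6, 75.1 and 34.4 CPM in LRCs against 28.2, 37.7 and 20.5 CPM in non-LRCs. The LRC library was the higher one of each pair, with log2 changes of 0.75, 0.996 and 0.75, but LRC library 3 lay below non-LRC library 2, so the groups overlapped. The difference did not pass the test (log2 fold change 0.83 ± 0.17, SE, n = 3 pairs, edgeR adjusted p = 0.0822), and its 95% interval was 0.41 to 1.26. *Tgfb2* (chr1:186622792-186705989) measured 195, 139 and 157 CPM in LRCs against 198, 171 and 121 CPM in non-LRCs. The groups overlapped throughout and the experiments went different ways, with log2 changes of -0.02, -0.29 and 0.37 (log2 fold change 0.02 ± 0.17, SE, n = 3 pairs, edgeR adjusted p = 0.967). The 95% interval of this log2 fold change, -0.403 to 0.44, corresponds to folds of 0.756 to 1.35.

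The windows before the start sites of *Tgfb1* and *Tgfb2* are shown because these ligands, alike in protein, differ in the letters just before their start sites. They are the 250 bases before the RefSeq start on GRCm38.p6, 5′ to 3′ on the gene's strand, with each match to a searched motif in capitals: GC box (GGGCGG), Smad box (CAGAC), TATA box (TATAAA), AP-1 element (TGACTCA) and cyclic AMP response element (TGACGTCA), each on both strands. The *Tgfb1* window (chr7:25686752-25687001, plus strand) held 5 GC boxes, the nearest 16 bases before the start, and the *Tgfb2* window (chr1:186705990-186706239, minus strand) held 2 Smad boxes, 221 and 204 bases before the start, and a TATA box 31 bases before it.
Tgfb1: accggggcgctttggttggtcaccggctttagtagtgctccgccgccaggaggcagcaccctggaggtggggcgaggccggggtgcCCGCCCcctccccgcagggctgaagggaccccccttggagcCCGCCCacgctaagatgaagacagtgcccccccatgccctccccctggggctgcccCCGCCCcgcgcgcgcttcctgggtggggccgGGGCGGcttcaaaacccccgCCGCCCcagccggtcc
Tgfb2: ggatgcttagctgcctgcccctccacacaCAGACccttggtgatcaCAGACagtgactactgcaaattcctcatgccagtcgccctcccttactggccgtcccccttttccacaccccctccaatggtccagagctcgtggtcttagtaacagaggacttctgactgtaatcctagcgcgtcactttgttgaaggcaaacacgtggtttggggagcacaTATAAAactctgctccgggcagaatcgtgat
Of the 32851 promoter windows of this length, 32.7% held a GC box, 42.2% a Smad box, 12.4% a TATA box, 4.46% an AP-1 element and 1.55% a cyclic AMP response element. The matches describe letters in the window, not bound sites.

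**Figure D1:**
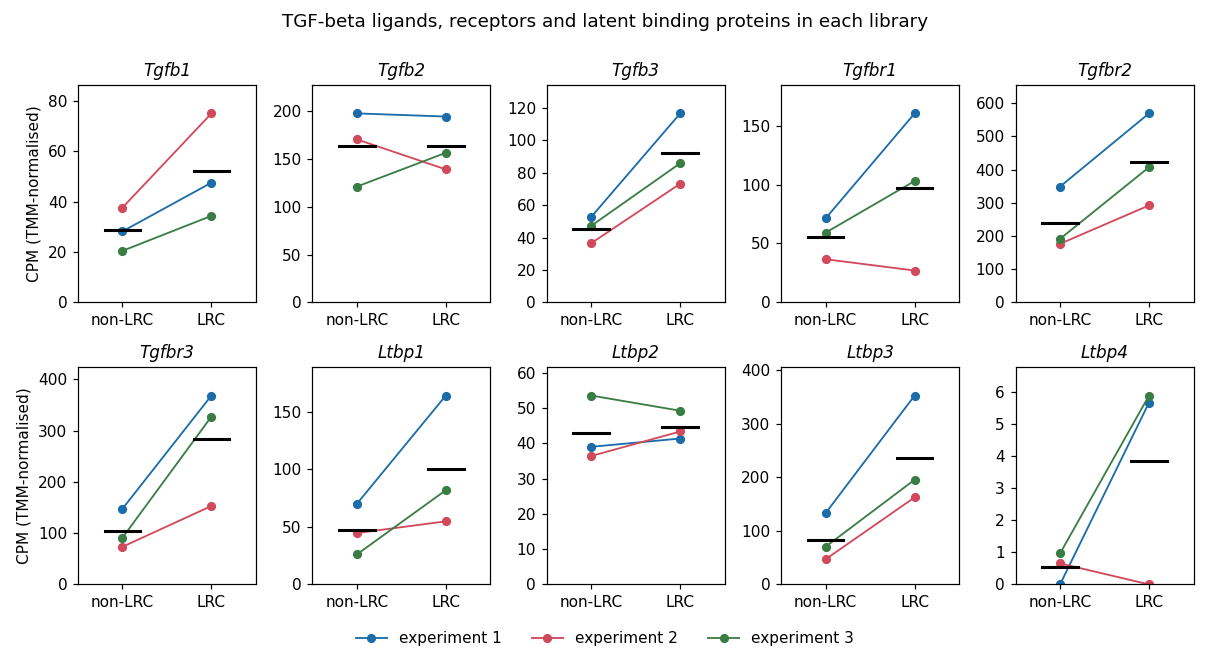
Level of the 10 TGF-beta genes in each of the 6 libraries (y axis, TMM-normalised CPM from 0; x axis, group); each line joins the 2 libraries of 1 experiment and black bars are group means. All 3 LRC points lie above all 3 non-LRC points for *Tgfb3*, *Tgfbr3* and *Ltbp3*, the lines of *Tgfb2* and *Ltbp2* run in both directions, and the experiment 2 lines of *Tgfbr1* and *Ltbp4* run downward.

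Among the receptors, *Tgfbr3*, which encodes the co-receptor betaglycan that presents ligand to the type II receptor, had the largest difference. At chr5:107106570-107289629, it measured 368, 153 and 327 CPM in LRCs against 147, 73.3 and 90.9 CPM in non-LRCs. The lowest LRC library, that of experiment 2, lay just above the highest non-LRC library, that of experiment 1. The difference was 2.66-fold with a 95% interval of 1.92 to 3.67 (log2 fold change 1.41 ± 0.19, SE, n = 3 pairs, edgeR adjusted p = 0.0392), and the log2 changes of the experiments were 1.32, 1.06 and 1.85. Without experiment 1 the edgeR log2 fold change was 1.45 and the call was lost (adjusted p = 0.112), in a fit that called 0.196% of all genes higher. The value was 1.58 (adjusted p = 0.0106) without experiment 2 and 1.21 (adjusted p = 0.0228) without experiment 3, both by edgeR.

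*Tgfbr2* (chr9:116084293-116175360), the receptor that first binds the ligand, measured 569, 292 and 407 CPM in LRCs against 349, 176 and 191 CPM in non-LRCs. Within each experiment the LRC library was higher, by log2 changes of 0.71, 0.73 and 1.09, yet LRC library 2 lay below non-LRC library 1. The test was not passed (log2 fold change 0.84 ± 0.15, SE, n = 3 pairs, edgeR adjusted p = 0.0628), with a 95% interval of 0.48 to 1.21. Without experiments 1, 2 and 3 in turn the value was 0.91 (adjusted p = 0.203), 0.899 (adjusted p = 0.0353) and 0.74 (adjusted p = 0.172) by edgeR. *Tgfbr1* (chr4:47353222-47414931), the kinase that phosphorylates Smad2 and Smad3, measured 160.5, 26.96 and 103 CPM in LRCs against 71.3, 36.6 and 59.2 CPM in non-LRCs. Experiments 1 and 3 were higher in LRCs and experiment 2 was lower, at 1.17, -0.44 and 0.8001, and the LRC library of experiment 2 was the lowest of all 6. The fitted difference did not pass the test (log2 fold change 0.53 ± 0.32, SE, n = 3 pairs, edgeR adjusted p = 0.4401) and had a 95% interval of -0.26 to 1.31. Without experiment 1 it was 0.18 (adjusted p = 0.8802), without experiment 2 0.99 (adjusted p = 0.0288) and without experiment 3 0.396 (adjusted p = 0.749), all by edgeR.

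The latent binding proteins tether the latent ligand to microfibrils. *Ltbp3* (chr19:5740904-5758532), which mice need for normal skeletal growth, had the lowest adjusted p of the 10 genes and measured 353, 163 and 196 CPM in LRCs against 133, 46.998 and 70.4 CPM in non-LRCs. All LRC libraries lay above all non-LRC libraries. The means were 237 ± 102 CPM for LRCs against 83.6 ± 44.6 CPM for non-LRCs (SD, n = 3), a 2.94-fold difference with a 95% interval of 2.27 to 3.797 (log2 fold change 1.56 ± 0.15, SE, n = 3 pairs, edgeR adjusted p = 0.0189). The 3 experiments gave log2 changes of 1.404, 1.79 and 1.47, and without experiment 1 the edgeR value was 1.63 (adjusted p = 0.0534), without experiment 2 1.44 (adjusted p = 0.008396).

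The 250 bases before the RefSeq start of *Ltbp3* (chr19:5740650-5740899, plus strand, GRCm38.p6) are shown because this gene carried the lowest adjusted p. They held 1 Smad box, 58 bases before the start and in capitals.
Ltbp3: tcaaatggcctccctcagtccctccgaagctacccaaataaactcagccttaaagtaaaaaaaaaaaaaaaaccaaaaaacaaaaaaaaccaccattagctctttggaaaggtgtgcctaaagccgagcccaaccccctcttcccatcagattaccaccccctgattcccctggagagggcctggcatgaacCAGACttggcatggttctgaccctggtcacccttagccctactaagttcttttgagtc

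*Ltbp1* (chr17:75005568-75392512) measured 164, 54.7 and 81.8 CPM in LRCs against 69.95, 44.6 and 26.02 CPM in non-LRCs. Each LRC library exceeded its partner, by log2 changes of 1.23, 0.296 and 1.65, but LRC library 2 lay below non-LRC library 1. The difference did not pass the test (log2 fold change 1.06 ± 0.28, SE, n = 3 pairs, edgeR adjusted p = 0.12496), its 95% interval was 0.39 to 1.74, and without experiments 1, 2 and 3 in turn it was 0.97 (adjusted p = 0.398), 1.44 (adjusted p = 0.01297) and 0.79 (adjusted p = 0.244) by edgeR. *Ltbp2* (chr12:84783212-84876532), which unlike its relatives is not known to bind latent TGF-beta, measured 41.4, 43.4 and 49.3 CPM in LRCs against 39.1, 36.4 and 53.6 CPM in non-LRCs. The groups overlapped, and the log2 fold change of 0.07 ± 0.17 (SE, n = 3 pairs; edgeR adjusted p = 0.8604) had a 95% interval of -0.35 to 0.495. *Ltbp2* shares 764 of its 8184 exon bases with an opposite-strand gene of the table, *D030025P21Rik*, and since the strand setting of the counting is not given in the sources used here, reads in these bases could not be assigned to either gene.

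*Ltbp4* (chr7:27305136-27337692) had the lowest level of the 10, with 5.67, 0 and 5.89 CPM in LRCs against 0, 0.655 and 0.966 CPM in non-LRCs. These values rest on 662, 0 and 253 counts for LRCs against 0, 25 and 48 for non-LRCs, and a count of 0 allows up to 0.143 CPM in LRC library 2 and 0.0290 CPM in non-LRC library 1, for counting error only. LRC libraries 1 and 3 were the highest and LRC library 2 was at 0, so the groups overlapped. The log2 fold change was 2.61 ± 3.25 (SE, n = 3 pairs; edgeR adjusted p = 0.717), with a 95% interval from -5.33 to 10.56.

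**Figure D2:**
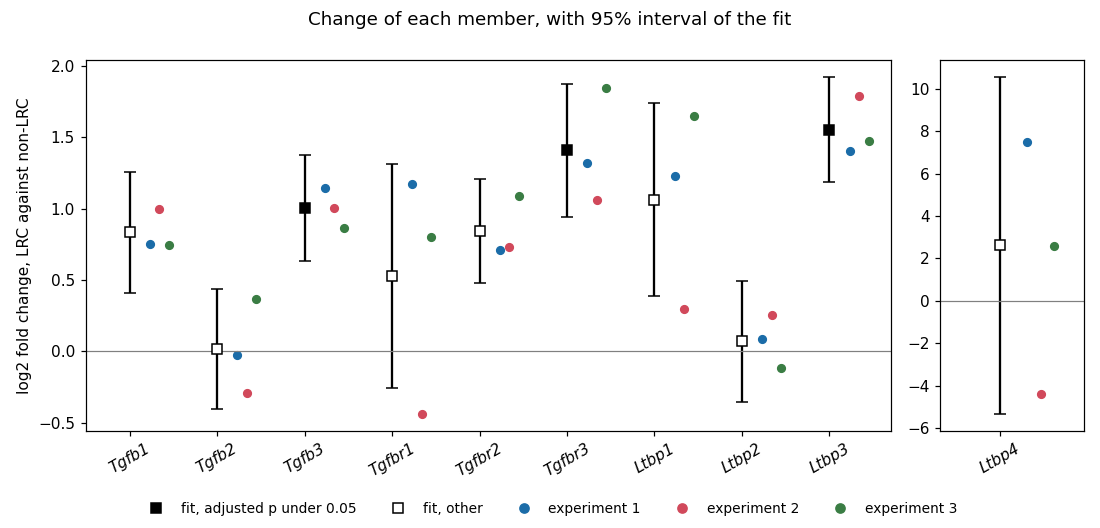
Fitted log2 fold change (squares, y axis, LRC against non-LRC) with its 95% interval for each of the 10 genes, and the log2 change of each experiment (coloured points); *Ltbp4* has an axis of its own. Filled squares mark the 3 called genes, and the intervals of *Tgfb2*, *Tgfbr1*, *Ltbp2* and *Ltbp4* include 0.

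The makeup of each family was then compared within libraries, as the share of each gene in the family's counts per exon length. Among the ligands, *Tgfb2* made up 43.3%, 39.7% and 45.6% in LRCs and 61.7%, 61.8% and 53.7% in non-LRCs of experiments 1, 2 and 3. *Tgfb3* made up 44.5%, 35.7% and 42.9% in LRCs and 28.2%, 22.6% and 35.9% in non-LRCs. The share of *Tgfb2* was lower in the LRC library of each pair and that of *Tgfb3* was higher, by 12.1 ± 4.74 percentage points (SD, n = 3 pairs). Thus per exon length *Tgfb2* and *Tgfb3* were present at close to equal shares in LRCs, at 42.9% and 41.03% on average, whereas *Tgfb2* led in non-LRCs, at 59.1% against 28.9%. The near equality depended on the division by exon length. In counts not divided by it, *Tgfb2* led in both groups, at 53.1% against 29.7% in LRCs and 68.3% against 19.6% in non-LRCs. An exact sign-flip permutation test over the 3 pairs gave a two-sided p of 0.25 for either gene, the smallest that 3 pairs allow. *Tgfb1* made up 16.1% on average in LRCs and 12.05% in non-LRCs, and its mean difference of 4.03 percentage points fell to 1.58 without experiment 2.

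Among the receptors, *Tgfbr3* made up 37.4%, 36.99% and 43.3% in LRCs and 29.6%, 29.2% and 30.02% in non-LRCs. Every LRC library held a larger *Tgfbr3* share than every non-LRC library, with a mean difference of 9.604 ± 3.18 percentage points (SD, n = 3 pairs; exact permutation p = 0.25). Among the latent binding proteins, *Ltbp3* made up 64.7%, 63.2% and 59.7% in LRCs and 56.5%, 37.3% and 45.96% in non-LRCs, and *Ltbp2* made up 8.41%, 18.7% and 16.7% in LRCs and 18.3%, 32.03% and 38.8% in non-LRCs. *Ltbp3* had the largest share of its family in all 6 libraries, with a mean difference of 15.9 ± 9.12 percentage points between the groups (SD, n = 3 pairs; exact permutation p = 0.25). The summed level of the ligands was 308 ± 44.6 CPM for LRCs against 238 ± 45.4 CPM for non-LRCs (SD, n = 3), that of the receptors 802 ± 315 CPM for LRCs against 398 ± 149 CPM for non-LRCs (SD, n = 3) and that of the latent binding proteins 386 ± 158 CPM for LRCs against 174 ± 60.2 CPM for non-LRCs (SD, n = 3). Each sum was higher in the LRC library of each pair, by mean log2 changes of 0.38, 0.99 and 1.13, with an exact permutation p of 0.25 for each, again the smallest possible.

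**Figure D3:**
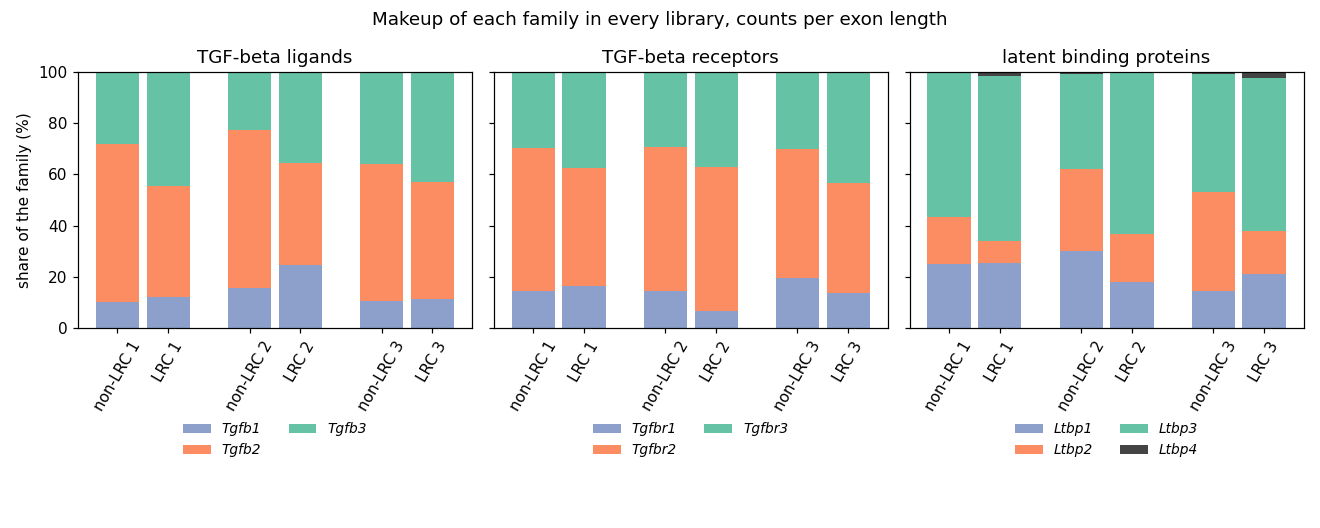
Share of each gene in its family's counts per exon length (y axis, percent) in every library (x axis, paired by experiment) for the ligands, receptors and latent binding proteins. The *Tgfb3*, *Tgfbr3* and *Ltbp3* shares (green) are larger in the LRC bar of each pair.

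Levels per exon length, scaled to the same total in each library, placed the 10 genes in nearly the same order in both groups. In LRCs *Tgfbr2* came first at 210.4, followed by *Tgfbr3* (177), *Tgfb2* (115), *Tgfb3* (111), *Ltbp3* (106), *Tgfbr1* (60.9), *Tgfb1* (41.6), *Ltbp1* (38.2), *Ltbp2* (22.1) and *Ltbp4* (2.47), as means of 3 libraries. In non-LRCs *Tgfbr2* also came first at 114, with *Tgfb2* at 109.7 ahead of *Tgfbr3* at 62.5, and *Ltbp2* at 20.7 ahead of *Ltbp1* at 17.03. Within either group the ranges of neighbours in this order overlapped at every step except the last, to *Ltbp4*. Compared within libraries, *Ltbp3* lay above *Tgfbr1* in all 3 LRC libraries, and *Tgfb2* above *Tgfbr3* and *Tgfb3* above *Ltbp3* in all 3 non-LRC libraries. The other neighbours above *Ltbp4* changed places in at least 1 library.

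The genes most like each called member across the 6 libraries, by Pearson r of log2 CPM among 7824 genes with a mean of at least 10 CPM, were *Antxr2* (r = 0.992), *Micall2* (r = 0.992) and *Cast* (r = 0.991) for *Tgfb3*, *Erbb2ip* (r = 0.997), *Prpf6* (r = 0.997) and *Pappa2* (r = 0.996) for *Tgfbr3*, and *Cast* (r = 0.993), *Zhx3* (r = 0.993) and *Rai14* (r = 0.992) for *Ltbp3*. The 6 points fall into 2 groups and share their depth and experiment, so these values describe a likeness of pattern. *Cast* stood in the lists of both *Tgfb3* and *Ltbp3*. Of the 8 genes, *Antxr2* and *Pappa2*, a protease of IGF binding proteins, were called higher in LRCs, against 0.903% of all genes. The 8 were picked for likeness to members called higher in the same libraries. Calls among them were thus favoured by the choice and are no separate result.

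Genes that act around the members were followed in 7 lists with 77 tested genes in all, some of them in more than 1 list. Of these, 2 were called higher in LRCs, *Pcsk5* and *Col1a1*, against 0.903% of all genes, and 0 were called lower by edgeR, against 0.379%. At an unadjusted p under 0.05, 22 were higher and 7 lower, where 8.89% and 9.53% of all genes were. DESeq2 called 4 lower and limma-voom 1, where they called 6.15% and 4.69% of all genes lower. The median log2 fold change of the 77 was 0.01, and 36.4% were higher in LRCs in all 3 experiments, against 20.4% of all genes. As with the members, the count of called genes moved with the model, to 0 higher without the block, 17 by DESeq2 and 18 by limma-voom, both with the block, where 6.16% and 5.22% of all genes were called higher. The counts of each list are to be read against these shares.

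Upstream of the receptors, the list of processing and activation genes held 18 tested genes with a median log2 fold change of 0.15, 1 of them called higher by edgeR, 6 higher and 1 lower at an unadjusted p under 0.05, 4 higher and 2 lower by DESeq2, and 4 higher and 0 lower by limma-voom. Its called gene, *Pcsk5*, encodes a proprotein convertase of the furin family and measured 83.6, 49.4 and 51.4 CPM in LRCs against 11.6, 11.2 and 5.23 CPM in non-LRCs. The groups were far apart (log2 fold change 2.77 ± 0.28, SE, n = 3 pairs, edgeR adjusted p = 0.0199), although without experiment 1 the adjusted p was 0.0616. The 8 matrix partners of the latent binding proteins had a median log2 fold change of 1.12, with 0 called either way by edgeR, 3 higher and 0 lower at an unadjusted p under 0.05, 2 higher by DESeq2 and 3 by limma-voom. Its largest values in either direction belonged to genes of low level, *Adamtsl2* at no more than 0.605 CPM in any library (log2 fold change 2.81, interval -4.76 to 10.38) and *Fbln5*, an elastic fibre protein, at no more than 7.31 CPM (-2.81, interval -6.35 to 0.73). *Fbln5* had -1.49 without experiment 2, and *Adamtsl2* had 0.19 without experiment 1. The 4 small proteoglycans that bind TGF-beta all had values above 0, with a median of 0.74 and 0 called by edgeR, 2 higher at an unadjusted p under 0.05, 2 by DESeq2 and 2 by limma-voom. The largest value was that of *Aspn* at 3.39 (interval -1.87 to 8.65), at no more than 3.86 CPM, and it was 5.32 without experiment 1 and 1.73 without experiment 2.

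At the receptor, the 11 co-receptors and receptor regulators had a median log2 fold change of -0.13, with 0 called by edgeR, 2 higher and 2 lower at an unadjusted p under 0.05, and 2 higher by DESeq2 and by limma-voom. *Dab2*, an endocytic adaptor that links the receptors to Smad proteins, measured 481, 192 and 352 CPM in LRCs against 165, 124 and 132 CPM in non-LRCs. All its LRC libraries lay above all non-LRC libraries, as for 8.41% of all genes. The difference missed the threshold (log2 fold change 1.1999 ± 0.21, SE, n = 3 pairs, edgeR adjusted p = 0.0632). *Zfyve16*, an endosomal protein, had a log2 fold change of -0.82 (interval -1.66 to 0.01), and without experiment 2 it was -0.35. The 15 Smad transducers and their regulators had a median of 0.38, with 0 called by edgeR, 7 higher and 1 lower at an unadjusted p under 0.05, and 6 higher by DESeq2 and by limma-voom. The ubiquitin ligase gene *Smurf1* had a log2 fold change of 1.21 (interval 0.48 to 1.94; edgeR adjusted p = 0.115), and the inhibitory Smad gene *Smad7*, itself induced by TGF-beta, had -0.48 (interval -0.88 to -0.07; adjusted p = 0.209).

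Downstream, the 19 TGF-beta response genes had a median log2 fold change of -0.21, with 8 above and 11 below 0. Of these, 1 was called higher by edgeR, 6 higher and 4 lower at an unadjusted p under 0.05, 4 higher and 2 lower by DESeq2, and 5 higher and 1 lower by limma-voom. The called gene *Col1a1*, a chain of type I collagen, measured 154, 52.96 and 113 CPM in LRCs against 33.7, 8.195 and 23.3 CPM in non-LRCs. All 3 LRC libraries lay above all 3 non-LRC libraries, as for 8.41% of all genes (log2 fold change 2.38 ± 0.18, SE, n = 3 pairs, edgeR adjusted p = 0.0151). The H2B-GFP transgene sits in the *Col1a1* locus of both groups. *Col1a1* also stands in the list of osteoblast markers described with the libraries. The partner chain *Col1a2* measured 2950, 1273 and 1487 CPM in LRCs against 2055, 1398 and 868 CPM in non-LRCs and did not pass the test (log2 fold change 0.39 ± 0.21, SE, n = 3 pairs, edgeR adjusted p = 0.386). The activin branch held 7 tested genes of 11 and a median of -0.24, with 0 called by edgeR, DESeq2 or limma-voom and 0 at an unadjusted p under 0.05. Its largest values were 0.47 (interval -0.34 to 1.28) for *Fstl3*, a secreted activin antagonist, and -2.01 (interval -6.27 to 2.25) for *Inhbb*, an activin subunit, and the latter was -0.53 without experiment 2.

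**Figure D4:**
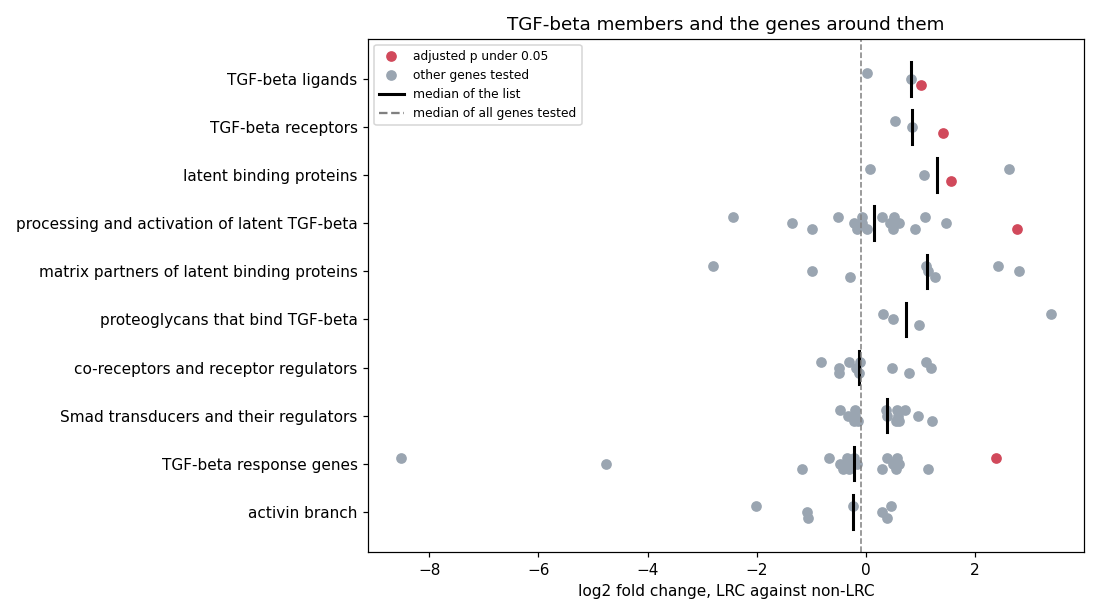
Log2 fold change (x axis, LRC against non-LRC) of every tested gene in the 3 families and the 7 lists around them (y axis); red points passed the test, black bars are list medians and the dashed line is the median of all genes tested. The 5 red points are *Tgfb3*, *Tgfbr3*, *Ltbp3*, *Pcsk5* and *Col1a1*, all above 0.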

How the data were processed

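RNA was measured in 6 libraries, 3 of LRCs and 3 of non-LRCs, paired by experiment number. Per the submitters' processing notes, reads were handled with FastQC, TopHat2 2.0.13, Bowtie2 2.2.1, HTSeq, Cufflinks, Cuffdiff and DESeq2 on GRCm38 (mm10). The gene annotation is not given in the sources used here. The authors deposited raw counts per gene, which were the input of every test here. Their counts divided by DESeq2 size factors and their rlog table were not used here.

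Tests used edgeR 4.0.16 under R 4.3.3 (filterByExpr, minimum count 10, minimum total 15; TMM; Benjamini-Hochberg adjustment over 13728 genes). The block for experiment follows the study's paired analysis, and deviations from the group means correlated within experiments (Pearson r 0.197, 0.288 and 0.336 across genes). Exon lengths and coordinates came from GENCODE vM21 on GRCm38 (20786 of 23159 symbols matched directly, 1909 by another RefSeq symbol, 464 not), promoters from RefSeq on GRCm38.p6. *Tgfb3* and *Tgfbr3* had no promoter entry. Alternatives were no block, DESeq2 1.42.0, limma-voom (limma 3.58.1), DESeq2 size factors, 2 other filters, a prior count of 2 and each experiment left out. The fits were tested on simulated data. Named genes were the 10 members, the called genes of each pathway list or else its largest log2 fold change in each direction, and the 3 genes most like each called member. Members and lists were chosen with earlier results of these data known.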

Additional observations from a re-analysis of the deposited data

How the results depend on the processing

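Without the replicate block, 0 members and 0 pathway genes were called higher. The replicate numbers mark shared experiments. DESeq2 with the block called 6 members and 17 pathway genes higher and 4 pathway genes lower, and limma-voom with the block called 6, 18 and 1. Requiring 10 or more counts in each library, which tested fewer genes, gave 6 members and 12 pathway genes higher, DESeq2 size factors in edgeR called 4 pathway genes and no filter 7. Leaving out 1 experiment each gave 0 to 6 members and 1 to 10 pathway genes. For the other changes the cause was not tested. With 1 experiment left out, the log2 fold change ranged from -0.14 (without experiment 3) to 0.17 for *Tgfb2*, from -0.0176 (without experiment 2) to 0.19 for *Ltbp2* and from -0.62 (without experiment 1) to 4.76 for *Ltbp4*, none of them called in any setting. The other 7 members were above 0 under every alternative. The differences in share of the 3 ligands between the groups kept their direction when counts were not divided by exon length and with each experiment left out. The near equality of *Tgfb2* and *Tgfb3* in LRCs did not hold without that division. *Ltbp4*, *Adamtsl2*, *Aspn* and *Fbln5* had wide intervals. With 3 pairs edgeR recovered 3.03% of genes simulated with a log2 change of 1 and 44.8% of those with 2, and 5.63% of its calls were false. These are medians over simulations in which the changed genes were drawn at random from all that passed the filter and the rest were unchanged. They are therefore not rates for the 10 members.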

Other observations

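Some pathway genes outside the rule for named genes that did not pass the test are given here as values, chosen after they were seen. They do not stand for the 77 tested genes of the lists, whose median log2 fold change was 0.01. *Pcsk6*, a convertase related to *Pcsk5*, had a log2 fold change of 0.903 (edgeR adjusted p = 0.0529) with all LRC libraries above all non-LRC libraries, as for 8.41% of all genes. *Dcn*, the proteoglycan decorin that binds TGF-beta in the matrix, had 0.97 (adjusted p = 0.05399 by edgeR), also without overlap. *Thsd4*, whose product associates with fibrillin, measured 29.4, 30.8 and 21.9 CPM in LRCs against 9.55, 2.51 and 5.03 CPM in non-LRCs, with a log2 fold change of 2.42 (edgeR adjusted p = 0.0658). Fibronectin (*Fn1*) had 1.14 and thrombospondin 1 (*Thbs1*), an activator of latent TGF-beta, 1.08, with edgeR adjusted p = 0.0658 and 0.0657. *Nedd4l*, a ubiquitin ligase that acts on Smad2 and Smad3, had 0.95 (edgeR adjusted p = 0.0595). In the other direction, *Bmp1*, a protease that cleaves latent binding protein, had -0.51 (edgeR adjusted p = 0.176). It was lower in LRCs in all 3 experiments, as were 26.1% of all genes. The same held for *Cdkn2b* of the response list, at -1.17 (edgeR adjusted p = 0.187). It also held for the receptor regulators *Fkbp1a* and *Strap*, both at -0.49 (edgeR adjusted p = 0.208 and 0.216). For *Bmp1*, *Fkbp1a* and *Strap* all LRC libraries lay below all non-LRC libraries, a pattern whose share of all genes was not counted. *Postn*, a matricellular gene of the response list, was at 0 counts in all LRC libraries and between 0.687 and 0.845 CPM in non-LRCs, where a count of 0 allows up to 0.0257, 0.143 and 0.0698 CPM in LRC libraries 1, 2 and 3.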
